A study of Canis lupus familiaris with 2 samples.

Results

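The 10 genes described here encode the nuclear lamina and the LINC complex, the protein layer under the nuclear envelope and the bridge that ties it to the cytoskeleton. They were chosen by gene symbol, with earlier results of these data known, and all 10 were found among the 23510 features of each culture and had an FPKM value above 1 in both. FPKM is a fragment count divided by both exon length and library size, which is meant to put different genes on a common scale. The gene annotation and library scaling used are not known, so comparisons of level between genes are approximate. MDCK cells, an established line of columnar epithelial cells from canine kidney, were grown on a semipermeable membrane under medium that stood 2 cm or 50 cm high for 3 days according to the sample labels, and the height of the medium set the static pressure in cm H2O. RNA sequencing covered 1 culture per height, both without any drug or genetic change, so no value has replicates, no p-value was computed, and no difference can be set against replicate error. The labels describe the 2-cm-high-medium culture as one without pressure, although its treatment label gives a pressure of 2 cm H2O.

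The lamina is a meshwork of intermediate filament proteins. A-type lamins, lamin A and lamin C, are spliced from LMNA, and the B-type lamins come from LMNB1 and LMNB2 and stay anchored in the membrane by a farnesyl group. Emerin (EMD), the lamin B receptor (LBR) and the products of TMPO, the lamina-associated polypeptides 2, bind lamins and chromatin, and most of them sit in the inner nuclear membrane. SUN proteins cross the inner membrane and hold the tails of nesprins, encoded by the SYNE genes, which cross the outer membrane and reach actin, microtubules or intermediate filaments. Lamin A is known to be more abundant in stiff tissues than in soft ones, and the LINC complex carries force from the cytoskeleton to the nucleus. The study compared low and high static pressure with an interest in cell shape and the cytoskeleton, and the comparison here asks how the RNA of these genes differed between the cultures.

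The epithelial identity of the cultures was read from marker genes. KRT8 was at 1641 FPKM under 2 cm of medium and 1561 FPKM under 50 cm. CDH1, the gene of E-cadherin, was at 211 and 229 FPKM, and EPCAM at 253 and 216 FPKM. Of the other epithelial markers, KRT18 was at 1384 and 1306 FPKM, KRT19 at 1583 and 1400 FPKM and CLDN7 at 308 and 324 FPKM. None of 5 mesenchymal, 2 endothelial and 1 leukocyte marker genes exceeded 1 FPKM in either culture. The mesenchymal markers summed to 0.374 FPKM under 2 cm of medium and 0.401 FPKM under 50 cm, with PDGFRA the highest at 0.202 and 0.247 FPKM and COL3A1 at 0 in both. The endothelial markers summed to 0.181 and 0.0397 FPKM, all of it CDH5, with PECAM1 at 0 in both, and the leukocyte marker PTPRC was at 0 in both. Read numbers are unknown, but among 574 features between 0 and 0.1 FPKM in both cultures, 219 had a ratio within 0.2% of 1.10. Equal read numbers in both cultures would give such a shared ratio, but without read counts this was not checked. If so, the same number of reads gave an FPKM value 9.77% higher in the 50-cm-high-medium culture.

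None of the 10 genes changed more than 2-fold or more than 1.5-fold between the cultures. Of the 11057 features above 1 FPKM in both cultures, 1.67% passed 2-fold, with 0.389% higher and 1.28% lower, and 7.19% passed 1.5-fold. Among the 10 genes, 5 were higher and 5 lower in 50-cm-high medium, compared with 52.6% of all features higher and 47.4% lower. Their median log2 ratio of 50-cm over 2-cm FPKM was -0.03, and that of all features was 0.01. The log2 ratios ran from -0.56 for SYNE2 to 0.35 for EMD. Of the 5 higher genes, LMNB1 and SUN1 were so close to equal that quantile normalization put them slightly below 0. This left 3 genes higher. Quantile normalization gives both cultures the same distribution of values, here over the features above 1 FPKM in both. Cells were measured in bulk and FPKM is relative to the whole library, so a change of all RNA in a cell cannot be seen, and a difference in every cell cannot be told apart from one in some cells.

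**Figure D1:**
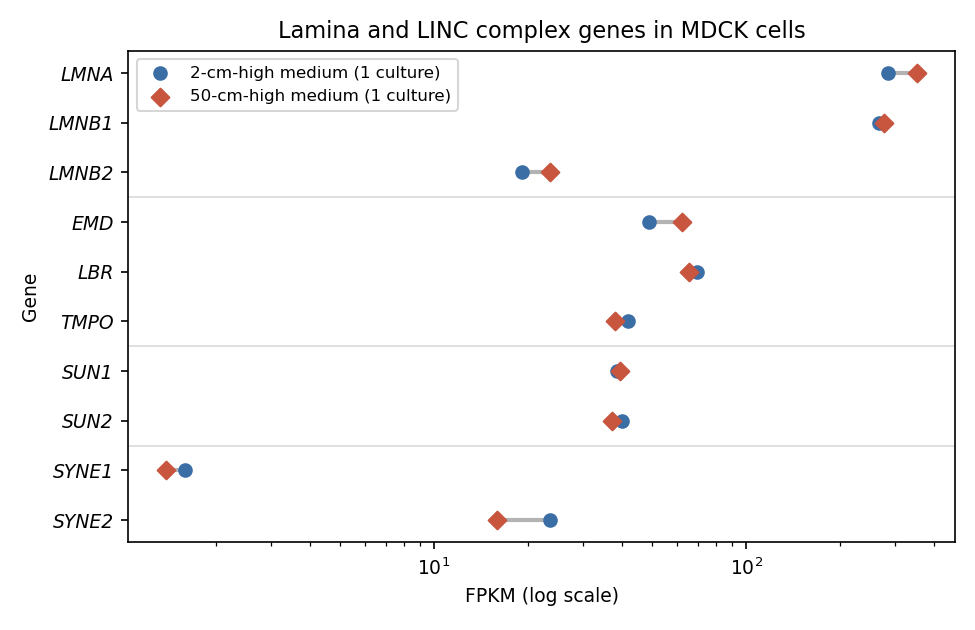
FPKM of the 10 genes on a log axis, with 1 point per culture (circle, 2-cm-high medium; diamond, 50-cm-high medium) and a grey line joining the cultures; horizontal lines separate lamins, inner membrane proteins, SUN proteins and nesprins. LMNA and LMNB1 lie at 265 FPKM or more in both cultures, SYNE1 at 1.59 FPKM or less, and the widest gap on the log axis belongs to SYNE2.

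The levels ran from 1.59 FPKM for SYNE1 to 284 FPKM for LMNA in 2-cm-high medium. LMNA and LMNB1 headed the order in both cultures, and each exceeded more than 97% of the features above 1 FPKM. LBR and EMD followed, then TMPO, SUN1 and SUN2 within a narrow band of 37.0 to 41.6 FPKM. In 2-cm-high medium the lower end was SYNE2, LMNB2 and SYNE1, whereas in 50-cm-high medium LMNB2 lay above SYNE2. SUN1, the lowest of the narrow band in 2-cm-high medium, was its highest in 50-cm-high medium. Without replicates it cannot be said which neighbours in this order differ. The lamin genes together held 68.4% of the summed FPKM of the 10 genes under 2 cm of medium and 71.6% under 50 cm, and the 2 nesprin genes 3.01% and 1.90%.

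All 3 lamin genes had higher values in 50-cm-high medium as deposited, although quantile normalization put LMNB1 just below 0. LMNA was at 284 FPKM under 2 cm of medium and 353 FPKM under 50 cm, a ratio of 1.24 and a log2 ratio of 0.31. It therefore stood at the 88.6 percentile of log2 ratios over all features. LMNB2 was at 19.1 and 23.5 FPKM, a ratio of 1.23 that placed it at the 87.7 percentile. LMNB1 was at 265 and 276 FPKM, a ratio of 1.04. The small difference of LMNB1 lay at the 57.1 percentile, near the middle of all features, and under quantile normalization its log2 ratio was -0.01.

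The ratio of A-type to B-type lamin RNA was computed within each culture, and lamin protein was not measured here. LMNA over the sum of LMNB1 and LMNB2 was 1.001 under 2 cm of medium and 1.18 under 50 cm, a log2 difference of 0.24. Most B-type lamin RNA was LMNB1, which exceeded LMNB2 by 13.9-fold under 2 cm of medium and by 11.7-fold under 50 cm. The difference in the RNA ratio was therefore a difference against LMNB1. Against LMNB1 alone, LMNA went from 1.07 to 1.28. Against LMNB2 alone, LMNA stood at 14.9-fold under 2 cm of medium and 15.02-fold under 50 cm, and the log2 difference was 0.01.

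Lamin A matures from prelamin A by farnesylation, carboxyl methylation and cleavage, and the 5 genes of these steps were all above 1 FPKM. None passed 1.5-fold, 2 were higher and 3 lower, and their median log2 ratio was -0.01. ICMT, the methyltransferase, had the highest ratio, 1.32, with 29.1 FPKM under 2 cm of medium and 38.4 FPKM under 50 cm. FNTB, the beta subunit of farnesyltransferase, had the lowest, 0.791, with 6.23 and 4.93 FPKM.

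The inner membrane proteins did not share a direction. EMD was at 48.6 FPKM under 2 cm of medium and 62.0 FPKM under 50 cm, a ratio of 1.28. This was the highest log2 ratio of the 10 genes, at the 91.1 percentile of all features. LBR, whose product binds B-type lamins and heterochromatin protein 1 and also has sterol reductase activity, was at 69.4 and 65.3 FPKM, a ratio of 0.941. TMPO was at 41.6 and 38.1 FPKM, a ratio of 0.914. Both lay below the median of all features, at the 34.0 and 28.9 percentiles. TMPO gives membrane-bound and nucleoplasmic proteins by splicing, and the single FPKM value does not separate them. Because EMD and TMPO differed in opposite directions, EMD exceeded TMPO by 1.17-fold under 2 cm of medium and by 1.63-fold under 50 cm. The pair was chosen after the values were seen and joins the highest and lowest log2 ratios of the inner membrane genes.

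**Figure D2:**
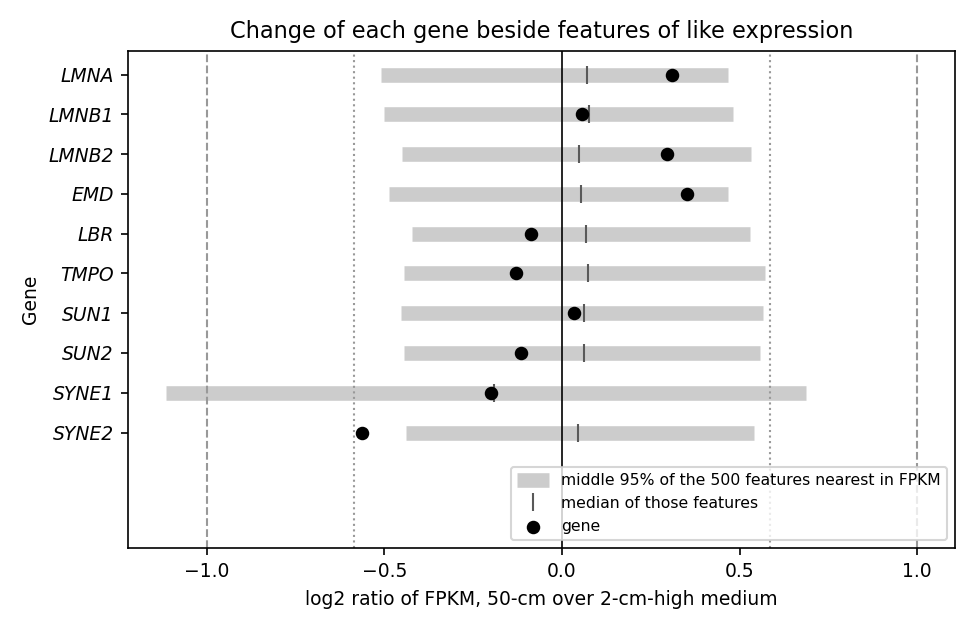
Log2 ratio of FPKM in 50-cm over 2-cm-high medium for each gene (black point), with the middle 95% (grey bar) and the median (tick) of the 500 features with the closest mean log2 FPKM; dotted lines mark 1.5-fold and dashed lines 2-fold. Bars show the spread across genes, not replicate error, and SYNE2 at -0.56 is the single gene outside its bar.

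SUN1 and SUN2, the SUN proteins of most somatic cells, had nearly equal RNA levels. SUN1 was at 38.5 FPKM under 2 cm of medium and 39.4 FPKM under 50 cm, a ratio of 1.02. SUN2 was at 40.1 and 37.0 FPKM, a ratio of 0.924. The ratio of SUN1 to SUN2 was 0.961 under 2 cm of medium and 1.06 under 50 cm. The SUN genes thus differed by under 10% between the cultures, and the log2 ratio of SUN1 was -0.02 under quantile normalization.

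Both nesprin genes were lower in 50-cm-high medium. SYNE2, which encodes nesprin-2, had 23.5 FPKM under 2 cm of medium and 15.9 FPKM under 50 cm. Its ratio of 0.677 was the most extreme of the 10 genes and lay just inside the 1.5-fold limit, being 1.478-fold higher in 2-cm-high medium. Among all features, 5.46% had a lower log2 ratio, and 5.06% were more than 1.5-fold lower. Among the 500 features with the closest mean log2 FPKM, the middle 95% of log2 ratios ran from -0.44 to 0.54, and SYNE2 at -0.56 lay below it. SYNE2 had the lowest log2 ratio of the 10 genes under each alternative, between -0.58 and -0.54.

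SYNE1, which encodes nesprin-1, had 1.59 FPKM under 2 cm of medium and 1.38 FPKM under 50 cm, a ratio of 0.870. Among the 500 features nearest to SYNE1 in expression the median log2 ratio was -0.19 and the middle 95% ran from -1.12 to 0.69, and SYNE1 at -0.20 lay near their middle. Quantile normalization brought its log2 ratio to 0.00. SYNE1 and SYNE2 are very long genes with short forms that lack the actin-binding end, and gene-level FPKM does not show which forms were present. SYNE2 RNA exceeded SYNE1 RNA by 14.8-fold under 2 cm of medium and by 11.5-fold under 50 cm.

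Set against each other, the SUN and nesprin genes of the LINC complex differed in their shift. SUN1 and SUN2 summed to 78.6 FPKM under 2 cm of medium and 76.4 FPKM under 50 cm, while SYNE1 and SYNE2 summed to 25.1 and 17.3 FPKM. The ratio of the SUN sum to the nesprin sum was 3.14 under 2 cm of medium and 4.43 under 50 cm, a log2 difference of 0.50. With SYNE2 alone as nesprin the log2 difference was 0.52, so the larger ratio followed SYNE2.

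**Figure D3:**
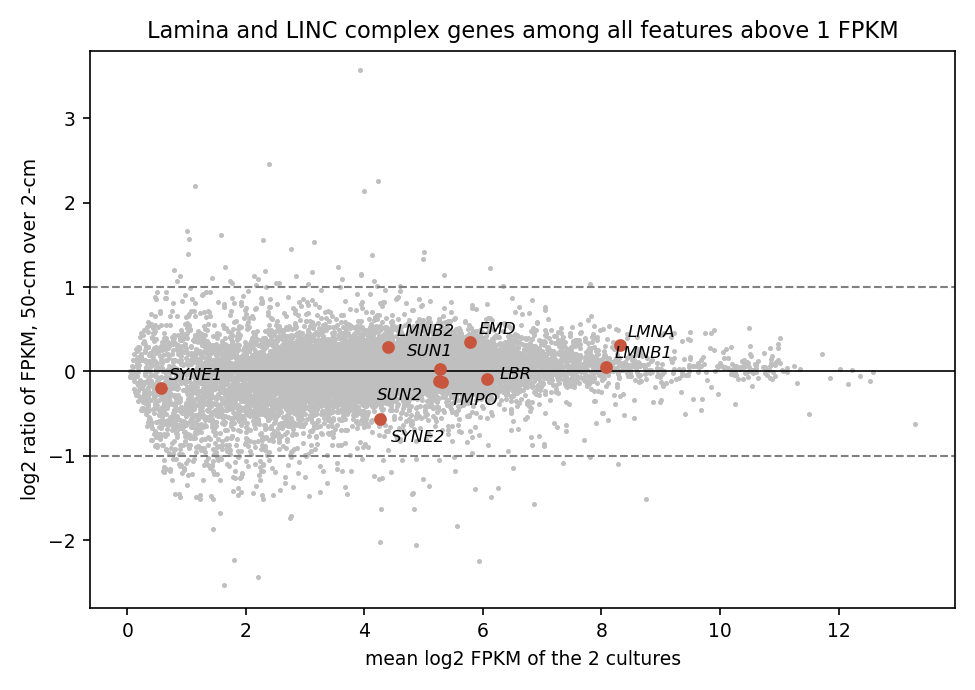
Log2 ratio of FPKM in 50-cm over 2-cm-high medium against mean log2 FPKM of the 2 cultures, for the 11057 features above 1 FPKM in both (grey) and the 10 genes (labelled); dashed lines mark 2-fold. The 10 genes lie between the dashed lines, from -0.56 for SYNE2 to 0.35 for EMD, and the grey cloud widens toward low expression, where SYNE1 lies.

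The other LINC complex genes were weakly expressed. Of 7 found in the files, SUN3 and SUN5 were at 0 in both cultures, LRMP stayed below 1 FPKM, and 4 could be compared. All 4 were lower in 50-cm-high medium, compared with 47.4% of all features lower, and their median log2 ratio was -0.45. With a pseudocount of 1 the median of the 4 was -0.29. Under quantile normalization it was -0.27, and SYNE3 lay slightly above 0. SPAG4, a SUN protein gene known from testis, fell from 3.11 to 1.11 FPKM, a ratio of 0.357 that with a pseudocount of 1 was 0.513. It was the only gene of the lists described here past 2-fold. Of all features, 1.28% were more than 2-fold lower. CCDC155, the KASH5 gene known from meiosis, went from 1.93 to 1.29 FPKM with a ratio of 0.667, just short of 1.5-fold, and recentring brought it to 0.66, past that limit. The nesprin genes SYNE3 and SYNE4, whose proteins bind plectin and kinesin-1, had ratios of 0.896 and 0.807. These genes lay near the level of SYNE1, where the ratios of features spread more widely than at the levels of the other members. Ratios were also lower there, with a median log2 ratio of -0.19 among the features nearest to SYNE1 in expression. The shares of all features given above, 47.4% and 1.28%, are not matched to this level, so they are a poor background for these 4 genes.

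Genes whose proteins meet nesprins on the cytoskeletal side had ratios from 0.960 to 1.61. Of the 10 genes, 9 were higher and 1 was lower, with a median log2 ratio of 0.13. Of all features 52.6% were higher, and of those above 5 FPKM in both cultures 57.1%. The 9 included FHOD1 and DYNC1H1, with ratios of 1.0001 and 1.009, and with recentring on the median of all features or with quantile normalization 7 were higher. PLEC, the gene of plectin, which links nesprin-3 to intermediate filaments, rose from 86.1 to 139 FPKM. Its ratio of 1.61 was the only one of this list past 1.5-fold, and 2.13% of all features were more than 1.5-fold higher. BICD2, a dynein adaptor, had a ratio of 1.32 and KIF5B, the kinesin-1 heavy chain, 1.23. FHOD1, a formin that binds nesprin-2, was at 5.15 FPKM in both cultures, and DST, the gene of dystonin, had the lowest ratio, 0.960. SYNE3, the gene of nesprin-3, had a ratio of 0.896, which was 1.03 under quantile normalization. A link between PLEC and SYNE3 was not tested.

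Other proteins of the nuclear envelope and partners of the lamina showed small differences. Of 18 genes, 17 were above 1 FPKM, 10 of them were higher and 7 lower, and the median log2 ratio was 0.06. TMEM201, the inner membrane protein SAMP1, was highest, with 6.55 FPKM under 2 cm of medium and 9.52 FPKM under 50 cm, a ratio of 1.45. LEMD2, a LEM-domain protein like emerin, was lowest, with a ratio of 0.920. BANF1, which encodes the chromatin protein that LEM domains bind, was at 243 and 229 FPKM. The heterochromatin protein 1 genes CBX1, CBX3 and CBX5, partners of LBR, had ratios from 0.940 to 0.955. Of all features, 47.4% were lower in 50-cm-high medium. Whether these genes changed together with LBR was not tested. None of the 17 passed 1.5-fold as deposited, although quantile normalization brought TMEM201 to 1.51.

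Nuclear pore genes, which share the envelope with the lamina, served as a larger group for comparison. All 30 found in the files were above 1 FPKM, 25 were higher and 5 lower in 50-cm-high medium (22 higher under quantile normalization), compared with 52.6% of all features higher, and none passed 1.5-fold. Their median log2 ratio was 0.14, compared with 0.01 for all features. Among features above 5 FPKM in both cultures, where all of these genes but NUP210 lay, 57.1% were higher. The median log2 ratio of those features was 0.04. RAE1, an mRNA export factor, had the highest ratio, 1.33, and NUP210, a pore membrane protein, the lowest, 0.733, with 4.48 FPKM under 2 cm of medium and 3.28 FPKM under 50 cm. Of 15 proliferation genes, 12 were higher and 3 lower, compared with 52.6% of all features higher and 57.1% of those above 5 FPKM. The median log2 ratio of the 15 genes was 0.19. Quantile normalization left 11 higher, with a median of 0.12. PLK1, a mitotic kinase, had the highest ratio, 1.24, and MKI67, a proliferation marker, the lowest, 0.85. LMNB1 and TMPO, which are often high in dividing cells, had log2 ratios of 0.06 and -0.13 beside this median. Whether the proliferation genes and the lamina genes were linked was not tested.

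**Figure D4:**
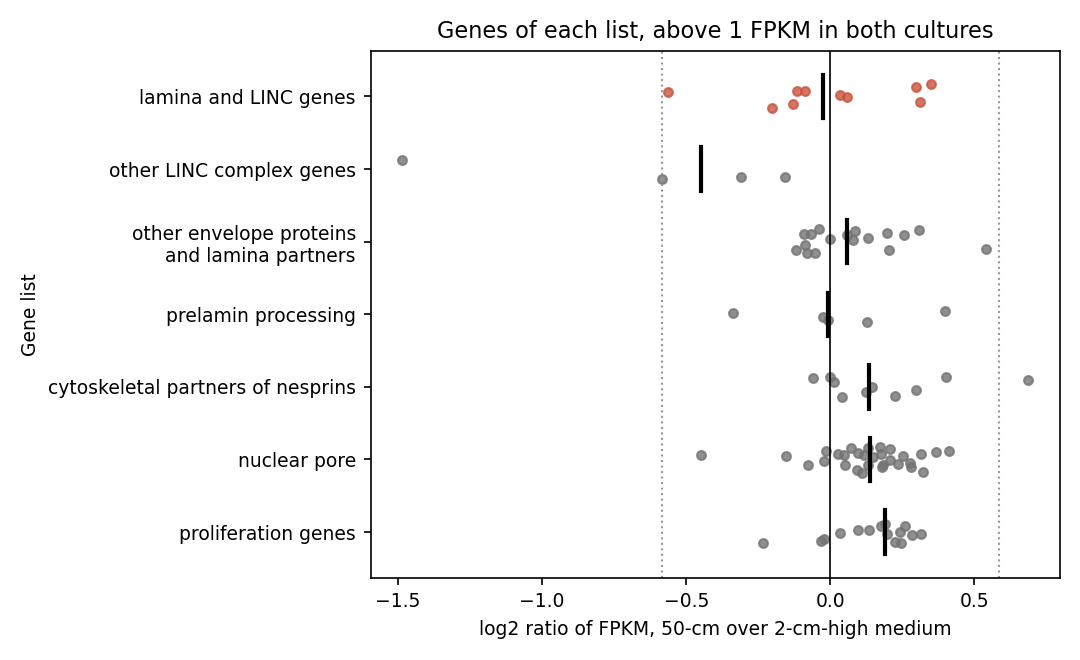
Log2 ratio of FPKM in 50-cm over 2-cm-high medium for each gene of the 10 lamina and LINC complex genes and of 6 related lists (1 point per gene above 1 FPKM in both cultures; vertical position within a row is random; black bar, median); dotted lines mark 1.5-fold. Medians run from -0.45 for the other LINC complex genes to 0.19 for proliferation genes, and that of the lamina and LINC complex genes is -0.03.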

How the data were processed

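Libraries were TruSeq stranded mRNA libraries sequenced as 75-base single-end reads. The authors mapped the reads to CanFam3.1 with TopHat 2.0.13, Bowtie2 2.2.3 and SAMtools 0.1.19 and calculated the deposited FPKM values with Cuffnorm 2.2.1. Which gene annotation and library scaling were used is not given in the sources used here. Each deposited file holds 1 FPKM value per gene symbol and no read counts, so the depth is unknown and intervals were not computed.

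Ratios of 50-cm over 2-cm FPKM were calculated with no pseudocount where both cultures exceeded 1 FPKM, the rule of the study, and a gene was counted as changed past 2-fold or, more loosely, 1.5-fold. With 1 culture per height no test was run. As a description of spread, the 500 features nearest in mean log2 FPKM were used. Alternatives were minima of 0, 0.1 and 5 FPKM, 1 FPKM in either culture, pseudocounts of 0.1 and 1, recentring, quantile normalization and other lamins in the A-type to B-type ratio.

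The members and lists were chosen with earlier results of these data known, and ratios between other members were chosen after their values were seen. Named genes are the 10 members, the epithelial markers and, in each list, the highest and lowest ratio and any gene past 1.5-fold. Of the related lists, LRMP, SYNE3, SYNE4, SUN3, SUN5, CCDC155, BICD2, KIF5B, FHOD1, DYNC1H1, BANF1, CBX1, CBX3 and CBX5 were added for their roles or values after values were seen, as were the markers COL3A1, PDGFRA, PECAM1, CDH5 and PTPRC. Sequences and genome positions are not used here. The code was tested on simulated data. Calculations used pandas 2.3.3 and numpy 2.4.6 in Python 3.11.15, and plots matplotlib 3.10.9.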

Additional observations from a re-analysis of the deposited data

How the results depend on the processing

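Over 128 recomputed values, 121 kept their direction and moved by less than 0.1 on the log2 scale or, for counts, by no more than 1.5 times. Much of this agreement was fixed in advance. Minima of FPKM only filter features and cannot change the log2 ratio of a member. Recentring shifts every log2 ratio by the same 0.0146. No member passed 1.5-fold or 2-fold under any alternative for the 10 genes. The share of all features past 2-fold, 1.67%, was 5.50% at a minimum of 0.1 FPKM, 8.50% with no minimum, 3.09% at 1 FPKM in either culture, 0.708% at 5 FPKM and 0.832% with a pseudocount of 1. Under quantile normalization, LMNB1 moved to a log2 ratio of -0.0068, SUN1 to -0.0186 and SYNE1 to -0.00085, and 3 members were higher; the log2 change of the SYNE2 to SYNE1 ratio moved from -0.36 to -0.58. A minimum of 5 FPKM, which removed SYNE1, brought the median of the members from -0.027 to 0.033. With LMNB2 alone as B-type lamin, the log2 change of the A-type to B-type ratio was 0.014 instead of 0.24. Alternatives for the SUN to nesprin and other member ratios and for the related lists were chosen after seeing the data. No paired analysis was possible because each medium height had 1 culture. Without read counts, the counting error of low values such as those of SYNE1 is unknown.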
